A study of Mus musculus with 24 samples.

Results

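A set of 10 mouse genes was followed through a macrophage study of Olfml3, a secreted olfactomedin family protein: the 9 Toll-like receptors Tlr1, Tlr2, Tlr3, Tlr5, Tlr6, Tlr7, Tlr8, Tlr9 and Tlr13, together with Unc93b1, which is no receptor but carries the nucleic acid receptors to their compartment. They were taken by gene symbol and make 10 of the 56691 genes in the deposited tables. Tlr4, Tlr11 and Tlr12 are not among them and are described with the pathway. RNA-seq was measured in RAW264.7 cells, a mouse macrophage-like leukaemia line, and in bone marrow-derived macrophages (BMDMs), which were grown with L929 supernatant from the marrow of male 8-week-old C57BL/6 mice. In each cell type there were 4 groups of 3 libraries: wild type with PBS, wild type given LPS at 100 ng/mL and harvested after 4 h, Olfml3 knockout with PBS, and Olfml3 knockout with the same LPS, 24 libraries in all. The BMDM knockout came from mice lacking Olfml3 in every tissue, made with CRISPR-Cas9, and the RAW264.7 knockout from single-cell clones made with a lentiviral guide, so a clone and the loss of the gene cannot be told apart there. The study's text speaks of biological replicates, but no source used here says whether separate cultures or animals lie behind the libraries of a group, so p-values measure only the spread between these libraries, which may be technical.

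Toll-like receptors are membrane proteins that bind molecules of microbes and signal through Myd88 or Ticam1 to NF-kappaB and interferon regulatory factors. Tlr1, Tlr2, Tlr5 and Tlr6 sit at the cell surface: Tlr2 pairs with Tlr1 or Tlr6 to bind bacterial lipopeptides, and Tlr5 binds flagellin. Tlr3, Tlr7, Tlr8, Tlr9 and Tlr13 sense nucleic acids inside endosomes, where they arrive with the chaperone Unc93b1. LPS itself is sensed by Tlr4.

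Levels are given as FPKM, a measure corrected for both gene length and sequencing depth, so that genes can be compared. The RAW264.7 libraries held 11638273 to 16478616 counts each, those of BMDMs 17121240 to 22873094. Olfml3 checked the labels: in BMDMs it stood at 0.53 to 0.65 FPKM in wild type with PBS and at 0.01 to 0.03 in knockout with PBS. In RAW264.7 it went the other way. Wild type with PBS held 0.15 to 0.19 FPKM and the libraries labelled knockout with PBS 0.65 to 1.19. The libraries labelled knockout with LPS held 18.3 to 18.9, and the level of Olfml3 in the other groups with LPS is not given here. Both RAW264.7 genotypes are therefore named throughout by their label, wild type as well as knockout. Were those labels exchanged, the sign of every RAW264.7 genotype difference would turn. Of 7 macrophage markers, all were over 1 FPKM in BMDMs and 6 in RAW264.7, where Mertk was at 0. The summed FPKM of those markers in RAW264.7 was 2914 to 2945 in wild type and 1054 to 1286 in the libraries labelled knockout with PBS, and their part in the results below was not tested. Of 4 T cell markers, Cd3d, Cd3e and Cd8a were at or near 0 in both cell types, while Cd4 was over 1 FPKM in BMDMs, at 7.71 to 8.58 FPKM in wild type and 6.44 to 6.72 in knockout with PBS, and at 4.40 to 4.99 and 3.30 to 3.75 with LPS. Of 4 neutrophil markers, S100a8 and S100a9 were over 1 FPKM in BMDMs, where the list summed to 4.55 to 5.97 FPKM in wild type and 5.30 to 6.39 in knockout with PBS, and to 4.95 to 7.99 and 4.86 to 5.65 with LPS, and Ly6g was at 0. The part of Cd4 and of these genes in the results was not tested. In a bulk measurement, fewer cells of a type and less RNA per cell cannot be told apart. Among the 3 labelled-knockout RAW264.7 libraries with PBS, replicate 1 stood apart from replicates 2 and 3 for Tlr7, Tlr9 and Tlr13, and values without it are given beside the results it moved most.

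Promoter sequence, 250 bases before to 50 after the start site, was held in RefSeq (GRCm38.p6) for 8 of the 10 genes, in 10 entries; Tlr7 and Unc93b1 were the other genes. Each was searched on both strands for 5 motifs: kappaB (GGGANTTTC), bound by NF-kappaB; ISRE (GAAANNGAA), bound by interferon regulatory factors; GAS (TTCNNNGAA), bound by STAT proteins; AP-1 (TGANTCA); and PU.1 (GAGGAAG), the myeloid factor. Those of Tlr3 and Tlr6 are printed for their kappaB and ISRE matches, and those of Tlr13 and Tlr9 for their PU.1 and AP-1 matches. That of Tlr2 is printed as a gene that rose with LPS and held no match to any of the 5 strings searched. Capitals mark the motif matches. In Tlr3 (chr8:45410331-45410630, minus strand) a kappaB match began 211 bases before the start, a motif held by 1.11% of all 32851 mouse promoters. In Tlr6 (chr5:64959117-64959416, minus strand, 1 of its 2 entries) a pair of overlapping ISRE matches lay at 115 and 109 bases before the start, and 8.56% of promoters hold that motif. In Tlr13 (chrX:106143025-106143324, plus strand) and Tlr9 (chr9:106222348-106222647, plus strand) PU.1 matches were found, a motif in 13.628% of promoters, and Tlr9 also had an AP-1 match, a motif in 7.808%. Tlr2 lay at chr3:83841559-83841858, minus strand. A match is a description of the letters and not a site of binding, and the absence of one says only that these letters are not in the window. Forms that differ from these letters were not counted as matches. The Tlr2 window holds GGGAATTCCC, close to the kappaB letters but not a match, so Tlr2 is not shown to lack a kappaB site.
Tlr3: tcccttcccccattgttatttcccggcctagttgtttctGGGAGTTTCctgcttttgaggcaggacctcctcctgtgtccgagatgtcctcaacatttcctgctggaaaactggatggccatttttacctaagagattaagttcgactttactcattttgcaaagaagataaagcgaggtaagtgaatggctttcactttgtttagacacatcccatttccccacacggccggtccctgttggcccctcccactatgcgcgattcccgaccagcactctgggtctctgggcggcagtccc
Tlr6: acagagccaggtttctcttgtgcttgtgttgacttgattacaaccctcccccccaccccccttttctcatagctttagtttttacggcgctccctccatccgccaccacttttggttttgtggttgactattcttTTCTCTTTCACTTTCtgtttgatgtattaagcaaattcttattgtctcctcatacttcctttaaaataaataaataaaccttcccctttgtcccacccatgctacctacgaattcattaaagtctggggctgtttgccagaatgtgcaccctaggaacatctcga
Tlr13: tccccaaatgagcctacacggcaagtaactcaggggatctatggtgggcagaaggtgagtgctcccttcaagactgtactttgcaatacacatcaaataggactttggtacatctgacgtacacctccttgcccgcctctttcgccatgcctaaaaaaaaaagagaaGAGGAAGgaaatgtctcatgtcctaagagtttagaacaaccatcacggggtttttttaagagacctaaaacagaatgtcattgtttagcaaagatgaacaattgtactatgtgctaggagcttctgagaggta
Tlr9: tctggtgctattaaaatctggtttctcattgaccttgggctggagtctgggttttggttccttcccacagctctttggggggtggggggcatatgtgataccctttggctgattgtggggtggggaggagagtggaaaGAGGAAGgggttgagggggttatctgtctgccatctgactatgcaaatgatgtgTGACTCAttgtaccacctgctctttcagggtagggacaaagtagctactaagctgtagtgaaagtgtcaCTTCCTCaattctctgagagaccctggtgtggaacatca
Tlr2: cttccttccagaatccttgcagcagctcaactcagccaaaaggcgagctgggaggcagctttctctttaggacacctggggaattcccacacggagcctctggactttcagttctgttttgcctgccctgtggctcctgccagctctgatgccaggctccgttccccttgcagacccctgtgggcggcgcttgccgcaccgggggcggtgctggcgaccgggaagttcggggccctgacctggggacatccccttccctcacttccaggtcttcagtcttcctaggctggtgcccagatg

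In the remaining entries, Tlr1 had a PU.1 match at 23 bases before one start and a GAS match at 228 bases before the other, Tlr8 had a GAS match at 106 and an ISRE match at 67 bases before the start, and the second Tlr6 entry had 2 GAS matches. GAS was held by 8.298% of promoters. Tlr5 had no match.

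The cell types carried different sets of receptors before any LPS. In wild-type RAW264.7 with PBS the order by mean FPKM was Unc93b1, Tlr2, Tlr7, Tlr13, Tlr6, Tlr1, Tlr9, Tlr3 and Tlr8, and no neighbours in that order overlapped between their libraries. Unc93b1 stood at 79.4 ± 0.622 FPKM (SD, n = 3), Tlr2 at 58.9 ± 2.00 and Tlr7 at 32.9 ± 1.11, with Tlr13 next at 8.25 ± 0.434. In wild-type BMDMs with PBS the order was Unc93b1, Tlr13, Tlr8, Tlr7, Tlr1, Tlr2, Tlr9, Tlr6, Tlr3 and Tlr5, in which only Tlr1 and Tlr2 overlapped. Tlr13, the sensor of bacterial ribosomal RNA, was there the highest receptor at 157 ± 1.75 FPKM, and Tlr8, at 87.7 ± 2.39 FPKM in BMDMs, gave 12 counts in total over 6 of the 12 RAW264.7 libraries and none over 4 in a library. Tlr5 had no count in any of 12 RAW264.7 libraries, which allows up to 0.0351 to 0.0497 FPKM per library (3 counts, counting error only). The levels of the cell types come from separate tables and were set side by side without a test.

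**Figure D1:**
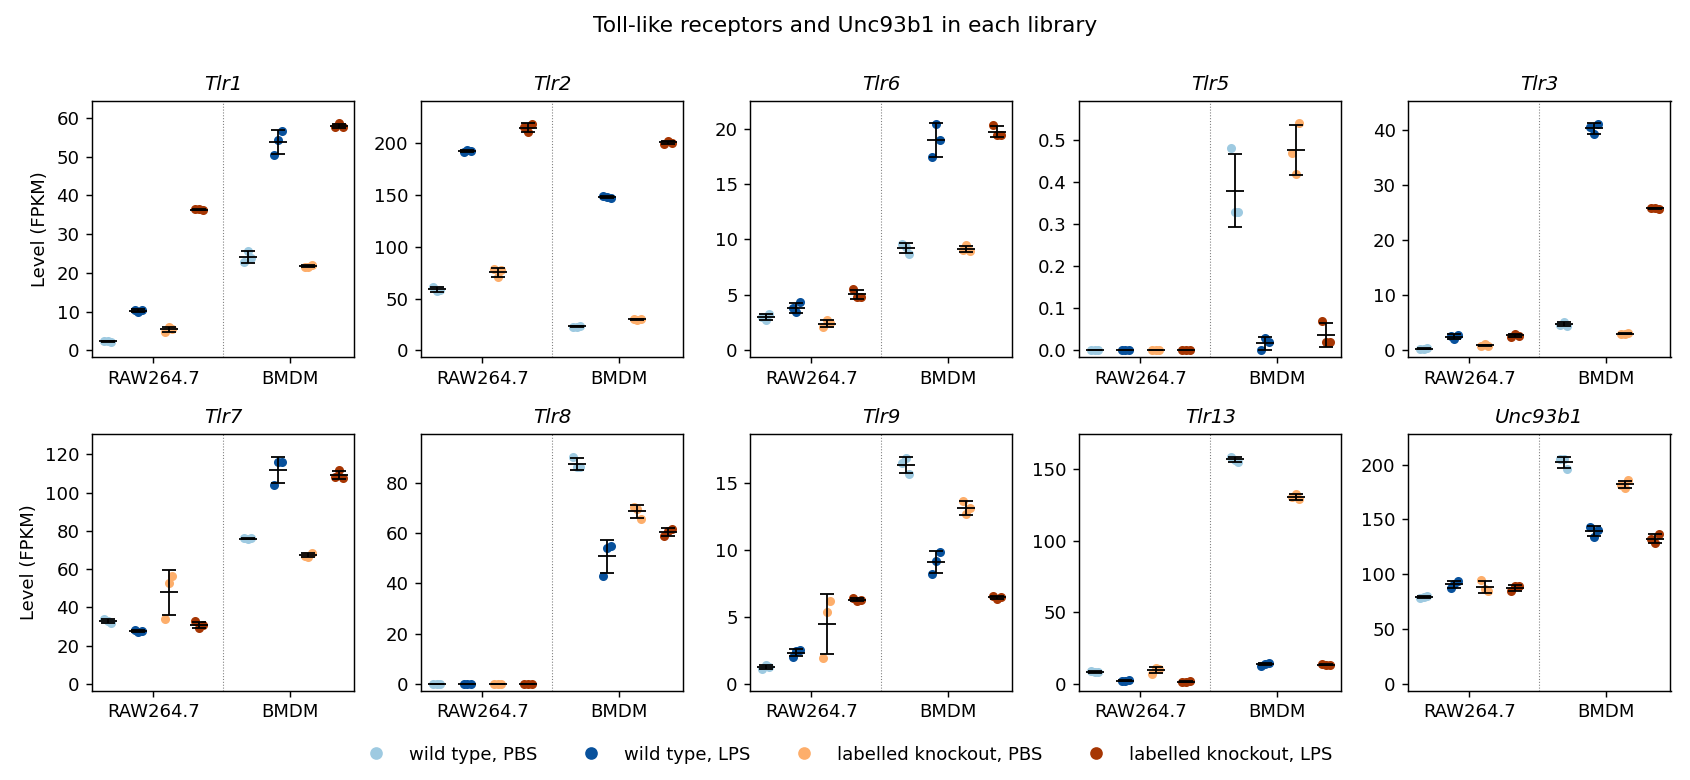
Level of each gene in FPKM (linear axis, own scale per panel) in every library of RAW264.7 and BMDMs, by genotype label and treatment; points are libraries and bars are the mean and SD of 3. Tlr8 and Tlr5 are at or near 0 in RAW264.7, Tlr13 is near 157 FPKM in wild-type BMDMs with PBS and near 14 with LPS, and Tlr7 and Tlr9 spread widely in RAW264.7 labelled knockout with PBS.

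With LPS, Tlr2 moved to the top of all 4 lists. In wild-type RAW264.7 with LPS the order was Tlr2, Unc93b1, Tlr7, Tlr1, Tlr6, Tlr3, Tlr9, Tlr13 and Tlr8, where Tlr3 overlapped Tlr9 and Tlr9 overlapped Tlr13. In wild-type BMDMs with LPS it was Tlr2, Unc93b1, Tlr7, Tlr1, Tlr8, Tlr3, Tlr6, Tlr13, Tlr9 and Tlr5, where Tlr1 overlapped Tlr8. Tlr13 dropped in the wild-type order of BMDMs from the place below Unc93b1 to the place above Tlr9. For RAW264.7 it dropped from the place below Tlr7 to the place above Tlr8. In the RAW264.7 libraries labelled knockout with LPS, Tlr1 stood above Tlr7 and Tlr9 above Tlr6. In knockout BMDMs with LPS, Tlr8 stood above Tlr1, and the rest of the order was that of wild type.

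**Figure D2:**
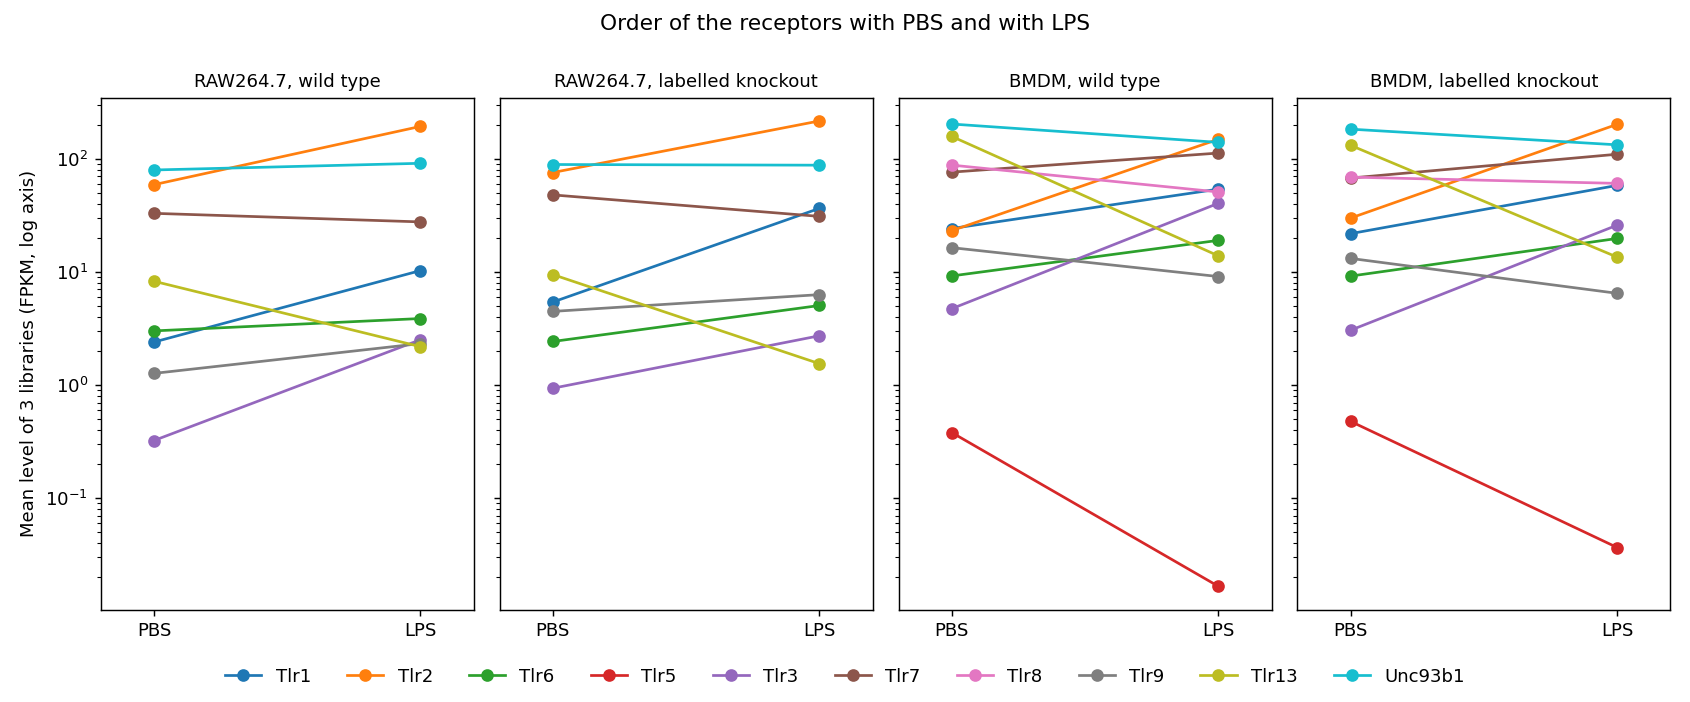
Mean FPKM of 3 libraries (log axis) with PBS and with LPS for each gene, in each cell type and genotype label; genes below 0.1 FPKM in both are not drawn. Tlr2 is the highest gene with LPS in all 4 panels, and Tlr13 crosses most of the other receptors downwards.

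The first question was how LPS changed these receptors. A gene is called changed where limma, on log2(FPKM + 0.1), gave a Benjamini-Hochberg adjusted p under 0.05 over all genes tested, and where the change was also 1.5-fold or more. In wild-type RAW264.7, 3 genes rose (Tlr1, Tlr2 and Tlr3) and 1 fell (Tlr13) among 9 tested, where 5.80% of all 26740 genes tested rose and 12.5% fell. In the RAW264.7 libraries labelled knockout, 4 rose (Tlr1, Tlr2, Tlr3 and Tlr6) and 2 fell (Tlr13 and Tlr7), against 7.45% and 14.6% of all genes. In wild-type BMDMs, 4 rose (Tlr1, Tlr2, Tlr3 and Tlr6) and 4 fell (Tlr5, Tlr8, Tlr9 and Tlr13) among 10 tested, where 7.94% of all 26973 genes rose and 32.5% fell. In knockout BMDMs, 5 rose (Tlr1, Tlr2, Tlr3, Tlr6 and Tlr7) and 3 fell (Tlr5, Tlr9 and Tlr13), against 8.02% and 30.9%.

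The median log2 difference of the members was 0.35 in wild-type RAW264.7, beside -0.05 over all genes, and 0.01 in wild-type BMDMs, beside -0.30. With each library rescaled by the median ratio to the others, those medians were 0.58 and 0.81, beside 0 over all genes in both. Libraries with and without LPS did not overlap for 8 of 9 members in wild-type RAW264.7 and for 10 of 10 in wild-type BMDMs, where the same was true of 38.8% and 52.2% of all genes. In the labelled-knockout groups this held for 7 of 9 and 10 of 10 members, beside 35.5% and 52.1%. In BMDMs the deposited FPKM carried a shift: among genes with a mean of at least 1 FPKM the median difference with LPS was -0.73 in wild type and -0.62 in knockout. Rescaling each library by the median ratio brought those medians to 0.06 and changed the calls over all genes in wild type from 2141 higher and 8758 lower to 4055 higher and 4405 lower. In RAW264.7 the same medians were -0.21 and -0.23. On the median-ratio scale 5 members rose and 2 fell in wild-type BMDMs, and likewise 5 and 2 in knockout. The genes that differ between the scales are Tlr7, Tlr8, Tlr9 and Unc93b1, and both values are given for them.

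**Figure D3:**
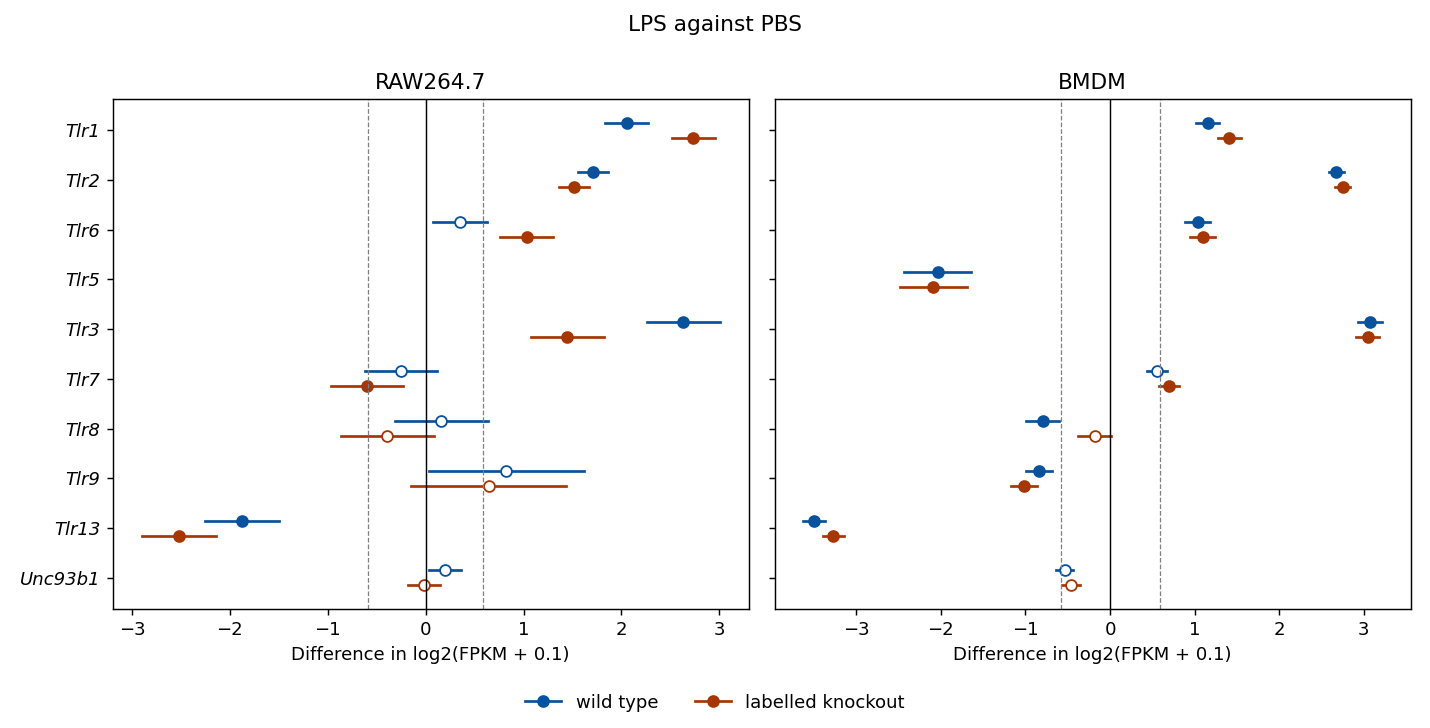
Difference with LPS in log2(FPKM + 0.1) for each gene in RAW264.7 (left) and BMDMs (right); circles are limma estimates with 95% intervals, filled where called, blue for wild type and brown for libraries labelled knockout, and dashed lines mark a 1.5-fold change. Tlr1, Tlr2 and Tlr3 lie to the right and Tlr13 to the left in both cell types, and Tlr5 is drawn only in BMDMs.

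Tlr2, the shared partner of the lipopeptide receptors, rose in every comparison with LPS. In wild-type RAW264.7 its FPKM was 61.0, 57.0 and 58.7 with PBS and 192, 194 and 193 with LPS. In wild-type BMDMs it was 22.9, 22.9 and 23.6 with PBS and 149, 148 and 148 with LPS. The groups with and without LPS were far apart in both cell types. The log2 difference was 1.71 (SE 0.069, limma adjusted p = 9.23e-08), a 3.27-fold rise, in wild-type RAW264.7, and 2.68 (SE 0.039, limma adjusted p = 2.39e-11), a 6.41-fold rise, in wild-type BMDMs. In the RAW264.7 libraries labelled knockout it was 1.51, and in knockout BMDMs 2.75, and neither differed from wild type past the threshold (difference -0.20, limma adjusted p = 0.554, and 0.07, limma adjusted p = 0.599).

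Between genotypes Tlr2 was higher without LPS in both cell types, by less than the 1.5-fold threshold. The RAW264.7 labelled-knockout libraries with PBS held 78.4, 70.6 and 77.2 FPKM, all above wild type, a log2 difference of 0.36 (limma adjusted p = 0.0115). Knockout BMDMs held 30.0, 29.1 and 30.6 FPKM with PBS and 199.8, 203 and 201 with LPS. Each of these knockout libraries was above every wild-type library of the same treatment, and the log2 differences were 0.37 with PBS and 0.44 with LPS (limma adjusted p = 0.000578 and 9.56e-05), neither called because of the fold.

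Tlr1, which joins Tlr2 to bind triacylated lipopeptides, rose with LPS in all 4 comparisons. In wild-type RAW264.7 it went from 2.53, 2.39 and 2.27 FPKM to 10.3, 9.89 and 10.5. In the libraries labelled knockout it went from 4.70, 6.10 and 5.43 FPKM to 36.4, 36.5 and 36.2. The libraries labelled knockout were therefore above wild type both before and after LPS, with no overlap. The log2 difference with LPS was 2.05 (SE 0.097, limma adjusted p = 2.57e-07) in wild type and 2.73 (SE 0.097, limma adjusted p = 2.71e-08) in the libraries labelled knockout. The knockout label gave a log2 difference of 1.14 with PBS and 1.82 with LPS (limma adjusted p = 7.43e-05 and 3.32e-06), a 3.54-fold higher level with LPS.

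The response of Tlr1 in BMDMs was alike in both genotypes in direction. Wild type held 22.8, 25.8 and 23.8 FPKM with PBS and 50.4, 54.4 and 56.5 with LPS, a log2 difference of 1.15 (SE 0.059, limma adjusted p = 6.36e-08). Knockout BMDMs held 21.6, 21.7 and 22.0 FPKM with PBS and 57.8, 58.6 and 57.7 with LPS, a log2 difference of 1.41. Between genotypes Tlr1 gave -0.15 with PBS and 0.11 with LPS (limma adjusted p = 0.270 and 0.278), and it was called in neither.

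Tlr6, which joins Tlr2 for diacylated lipopeptides, rose in BMDMs and in the RAW264.7 libraries labelled knockout. In BMDMs it went from 9.55, 9.34 and 8.70 FPKM to 17.4, 20.5 and 19.0 in wild type, and from 9.04, 9.47 and 9 to 20.3, 19.4 and 19.4 in knockout. Both genotypes rose from about the same start, with log2 differences of 1.03 and 1.10 (limma adjusted p = 3.24e-07 and 2.43e-07). In RAW264.7 it stood at 2.99, 2.78 and 3.25 FPKM in wild type with PBS and at 3.84, 3.43 and 4.33 with LPS, a log2 difference of 0.35 that did not pass (limma adjusted p = 0.0694), while DESeq2 and edgeR after filterByExpr called it at 0.61 and 0.59 (adjusted p = 0.000423 and 0.00217). In the libraries labelled knockout it stood at 2.10, 2.71 and 2.46 with PBS and at 5.49, 4.83 and 4.80 with LPS, a log2 difference of 1.03 (limma adjusted p = 0.000122). The difference between those responses was 0.68 (95% interval 0.29 to 1.07) and was not called (limma adjusted p = 0.103). It was called with quantile normalization (0.71, adjusted p = 0.0288), by DESeq2 (0.72, adjusted p = 0.0233) and among genes of at least 1 FPKM in 3 libraries (0.68, limma adjusted p = 0.0458). Tlr1 and Tlr6 are neighbours on chromosome 5 and near copies in part. Of 50-base windows, 15.37% of those of the Tlr1 transcript and 12.32% of those of Tlr6 also occur in another gene. For 150-base windows it was 4.30% and 3.86%. Each is the gene that shares most windows with the other, so the split of such reads between them is uncertain. No other member shared a window.

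Tlr5, the flagellin receptor, was detected in BMDMs alone and near the limit of the counts. Wild-type BMDMs with PBS gave 55, 37 and 38 counts (0.48, 0.33 and 0.33 FPKM) and with LPS 0, 3 and 2 counts. Knockout BMDMs gave 52, 50 and 50 counts with PBS and 8, 2 and 2 with LPS. All 6 LPS libraries were below all 6 PBS libraries. The log2 difference was -2.03 in wild type and -2.09 in knockout (limma adjusted p = 3.53e-06 and 3.16e-06), and it understates the change of so low a gene because of the pseudocount; with a pseudocount of 1 FPKM it was -0.44 and -0.51, under the fold threshold.

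Tlr3, the receptor of double-stranded RNA, had the largest ratio of FPKM with LPS to PBS among the members in wild type of both cell types, 7.77-fold in RAW264.7. In wild-type BMDMs it went from 4.57, 5.16 and 4.45 FPKM to 40.6, 39.3 and 41.1, an 8.53-fold rise and a log2 difference of 3.07 (SE 0.062, limma adjusted p = 1.46e-10). In knockout BMDMs it went from 2.92, 3.01 and 3.22 FPKM to 25.9, 25.9 and 25.7, a log2 difference of 3.04. The responses of the genotypes differed by -0.02 (95% interval -0.22 to 0.17, limma adjusted p = 0.913), but every knockout library lay below every wild-type library of the same treatment. Tlr3 was the only member called between BMDM genotypes: the log2 difference was -0.61 with PBS and -0.64 with LPS (SE 0.062 in each, limma adjusted p = 0.000444 and 0.000151). With PBS this lies close to the fold threshold, and without knockout replicate 1 or wild-type replicate 2 it was -0.58 and -0.55 and no longer called.

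In RAW264.7 Tlr3 was low and the label went with the opposite direction. Wild type held 0.30, 0.26 and 0.41 FPKM with PBS and the libraries labelled knockout 0.85, 1.09 and 0.87, a log2 difference of 1.30 (SE 0.17, limma adjusted p = 0.00103). With LPS they held 2.64, 2.08 and 2.82 FPKM and 2.44, 3.05 and 2.68. The groups were apart with PBS and overlapped with LPS, where the difference was 0.12 (limma adjusted p = 0.696). The wild-type libraries with PBS held only 21 to 28 counts of Tlr3. With a pseudocount of 1 FPKM the difference with PBS was 0.55 and not called. The response to LPS was 2.63 in wild type and 1.45 in the libraries labelled knockout, and the difference of the responses, -1.18 (95% interval -1.71 to -0.65, limma adjusted p = 0.0352), was called. An antisense gene, Gm45542, overlaps 698 bases of Tlr3 and reached at most 0.17 FPKM in RAW264.7 and 0.21 in BMDMs. No source used here says whether counting used strand.

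Tlr7, a receptor of single-stranded RNA, rose with LPS in knockout BMDMs. On the deposited scale it fell in the RAW264.7 libraries labelled knockout, a call that most alternatives did not keep. In wild-type BMDMs it went from 76.3, 75.6 and 76.1 FPKM to 104, 116 and 116, and in knockout from 67.0, 66.6 and 68.6 to 108, 112 and 108. No LPS library overlapped a PBS library, and the log2 differences were 0.56 in wild type, just under the fold threshold, and 0.70 in knockout, which was called (limma adjusted p = 5.54e-06 and 1.12e-06). On the median-ratio scale both were called, at 1.36 and 1.39. In RAW264.7 it went from 33.9, 33.0 and 31.7 FPKM to 28.1, 26.9 and 27.8 in wild type, a log2 difference of -0.25 (limma adjusted p = 0.380), which was -0.01 on the median-ratio scale. In the libraries labelled knockout it went from 34.1, 53.0 and 56.4 to 32.6, 29.5 and 30.5, a called difference of -0.60 (limma adjusted p = 0.0206) that was -0.33 on the median-ratio scale (adjusted p = 0.193). It was also not called with TPM, quantile normalization, a pseudocount of 1 or a fit of the 2 groups alone. Nor was it called by edgeR (-0.41 without a filter, -0.39 after filterByExpr) or DESeq2 (-0.36). Replicate 1 with PBS was the low library: without it the knockout label with PBS gave a called rise of 0.73 (limma adjusted p = 4.18e-05), and with all libraries 0.51 (limma adjusted p = 0.0722). The fall with LPS was not called without any 1 of replicates 2 and 3 of either labelled-knockout group, at -0.46 to -0.59.

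Tlr8, the neighbour of Tlr7 on the X chromosome and also a receptor of RNA, was the member whose response to LPS differed between BMDM genotypes. Wild-type BMDMs went from 90.4, 86.3 and 86.3 FPKM to 43.1, 54.2 and 54.9, and knockout from 70.6, 69.7 and 65.7 to 58.8, 60.7 and 61.8. With PBS the knockout libraries were all below wild type, and with LPS they were all above it. The log2 difference with LPS was -0.80 in wild type (SE 0.087, limma adjusted p = 2.21e-05) and -0.18 in knockout (limma adjusted p = 0.116), and the difference of the responses was 0.61 (95% interval 0.33 to 0.89, limma adjusted p = 0.0190), which was called. On the median-ratio scale the fall in wild type was gone (0.01) and knockout gave 0.51; the difference of the responses was 0.50 (adjusted p = 0.0518). It was also no longer called without wild-type LPS replicate 1 (0.50) or knockout PBS replicate 3 (0.58).

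Tlr9, the receptor of unmethylated CpG DNA, fell with LPS in BMDMs on the deposited scale. It went from 16.5, 16.9 and 15.7 FPKM to 8.22, 9.18 and 9.85 in wild type and from 13.6, 12.7 and 13.1 to 6.59, 6.33 and 6.45 in knockout. These are log2 differences of -0.84 and -1.01 (limma adjusted p = 2.06e-06 and 5.88e-07), of which -0.05 and -0.33 were left on the median-ratio scale and neither was called. Knockout BMDMs were below wild type in every library with either treatment, with log2 differences of -0.31 and -0.48 (limma adjusted p = 0.0334 and 0.00109) under the fold threshold; on the median-ratio scale the one with LPS was -0.64 and called.

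In RAW264.7 Tlr9 was higher in the libraries labelled knockout. Wild type held 1.12, 1.41 and 1.27 FPKM with PBS and 2.02, 2.42 and 2.53 with LPS, and the libraries labelled knockout 1.90, 5.36 and 6.15 with PBS and 6.42, 6.20 and 6.24 with LPS. All 6 libraries labelled knockout lay above the wild-type libraries of the same treatment, and replicate 1 with PBS was far below the other two. The log2 difference was 1.59 with PBS and 1.40 with LPS (SE 0.35 in each, limma adjusted p = 0.0208 and 0.0186). Both calls sat near the threshold: the one with PBS was lost without labelled-knockout replicate 2 or 3 or any single wild-type library (adjusted p 0.0525 to 0.0827), and the one with LPS without any single labelled-knockout library or wild-type replicate 1 (adjusted p 0.0505 to 0.0615). With LPS against PBS the differences of 0.83 in wild type and 0.64 in the libraries labelled knockout did not pass (limma adjusted p = 0.139 and 0.237); without labelled-knockout PBS replicate 1 the one in wild type passed (limma adjusted p = 0.000365), and edgeR and DESeq2 called it at 1.09 and 1.12. The rise in the libraries labelled knockout was called by edgeR without a filter (0.72, adjusted p = 0.00116) and by DESeq2 (0.76, adjusted p = 0.0419), and it was 0.13 (limma adjusted p = 0.478) without replicate 1 with PBS, whose removal also took the genotype difference with PBS from 1.59 to 2.10. Siglech, a marker of plasmacytoid dendritic cells, which are rich in Tlr7 and Tlr9, stood at 1.11, 0.97 and 1.28 FPKM in wild-type RAW264.7 with PBS and at 9.45, 9.72 and 8.45 in the libraries labelled knockout with PBS. It was the single marker over 1 FPKM of 6 dendritic cell markers, whose summed level was 1.09 to 1.36 FPKM and 8.67 to 10.1 in those groups. With LPS that sum was lower, at 0.83 to 0.98 FPKM in wild type and 2.89 to 2.98 in the libraries labelled knockout. The part of Siglech in the Tlr9 result was not tested.

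Tlr13 had the largest fall among the members with at least 1 FPKM. In wild-type BMDMs it went from 159, 157 and 155 FPKM to 12.8, 13.9 and 14.8, and in knockout from 130.5, 133 and 129 to 13.9, 13.1 and 13.5. The log2 differences were -3.50 and -3.27 (SE 0.056 in each, limma adjusted p = 4.01e-11 and 5.92e-11), and -2.70 and -2.58 on the median-ratio scale. In RAW264.7 it went from 8.75, 8.06 and 7.95 FPKM to 2.18, 1.96 and 2.40 in wild type and from 7.08, 10.8 and 10.5 to 1.30, 1.64 and 1.69 in the libraries labelled knockout, log2 differences of -1.88 and -2.52 (limma adjusted p = 2.20e-05 and 2.12e-06). No LPS library overlapped a PBS library in either cell type. With PBS, knockout BMDMs were lower than wild type by -0.26 on the log2 scale (limma adjusted p = 0.0317), under the fold threshold.

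Unc93b1 was the highest of these genes in every group with PBS and was called in no comparison on the deposited scale. In wild-type BMDMs it went from 205, 205 and 196 FPKM to 143, 134 and 140, and in knockout from 182, 179 and 186 to 132, 129 and 137. The LPS libraries were all lower, with log2 differences of -0.54 and -0.46 (limma adjusted p = 3.14e-06 and 1.15e-05) under the fold threshold, and the direction turned on the median-ratio scale, to 0.27 and 0.23, while quantile normalization called the fall, at -0.87 and -0.77. In RAW264.7 it held 78.6, 79.7 and 79.8 FPKM in wild type with PBS and 87.8, 90.9 and 94.2 with LPS, a log2 difference of 0.20 (limma adjusted p = 0.0825).

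**Figure D4:**
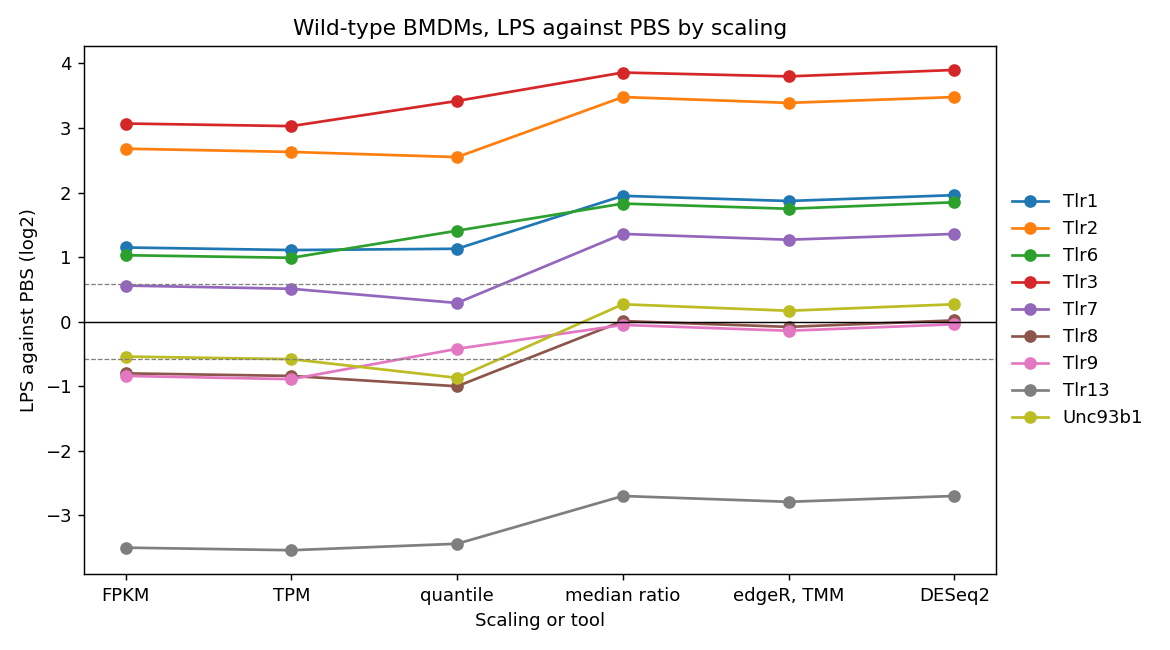
Log2 difference with LPS in wild-type BMDMs for 9 genes under the deposited FPKM, TPM, quantile, median-ratio, edgeR and DESeq2 scales; dashed lines mark a 1.5-fold change and Tlr5 is not drawn. Tlr8 moves from -0.80 to 0.01 and Unc93b1 from -0.54 to 0.27 between the FPKM and the median-ratio scale, and Tlr2, Tlr3 and Tlr13 keep their direction.

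The second question was what the Olfml3 genotype changed. In RAW264.7 with PBS, 3 of 9 members were higher in the libraries labelled knockout (Tlr1, Tlr3 and Tlr9) and none was lower, where 4.79% of all genes were higher and 3.77% lower. With LPS 2 were higher (Tlr1 and Tlr9) and none lower, against 9.73% and 7.60%. In BMDMs 1 of 10 was lower with PBS and 1 with LPS, Tlr3 in both, and none was higher, against 0.916% lower and 0.901% higher of all genes with PBS and 1.53% and 3.23% with LPS. The genotype comparisons with PBS and with LPS contrast different libraries, but all comparisons in a cell type share the same estimate of the spread. Those of LPS and of genotype also share groups, so none of these comparisons is independent of the others. Libraries of the genotypes did not overlap for 7 of 9 members in RAW264.7 with PBS and 8 of 10 in BMDMs with PBS, where 24.1% and 20.5% of all genes did not overlap, and with LPS for 6 of 9 and 5 of 10, beside 40.2% and 26.7%. The median difference of the members was 0.39 in RAW264.7 with PBS and -0.16 in BMDMs with PBS, beside 0.02 and 0.01 over all genes. Without labelled-knockout PBS replicate 1, 5 members were called in RAW264.7 with PBS: Tlr1, Tlr3, Tlr7, Tlr8 and Tlr9. The Tlr8 call (0.63, limma adjusted p = 0.0179) rests on a gene with at most 4 counts in a library.

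**Figure D5:**
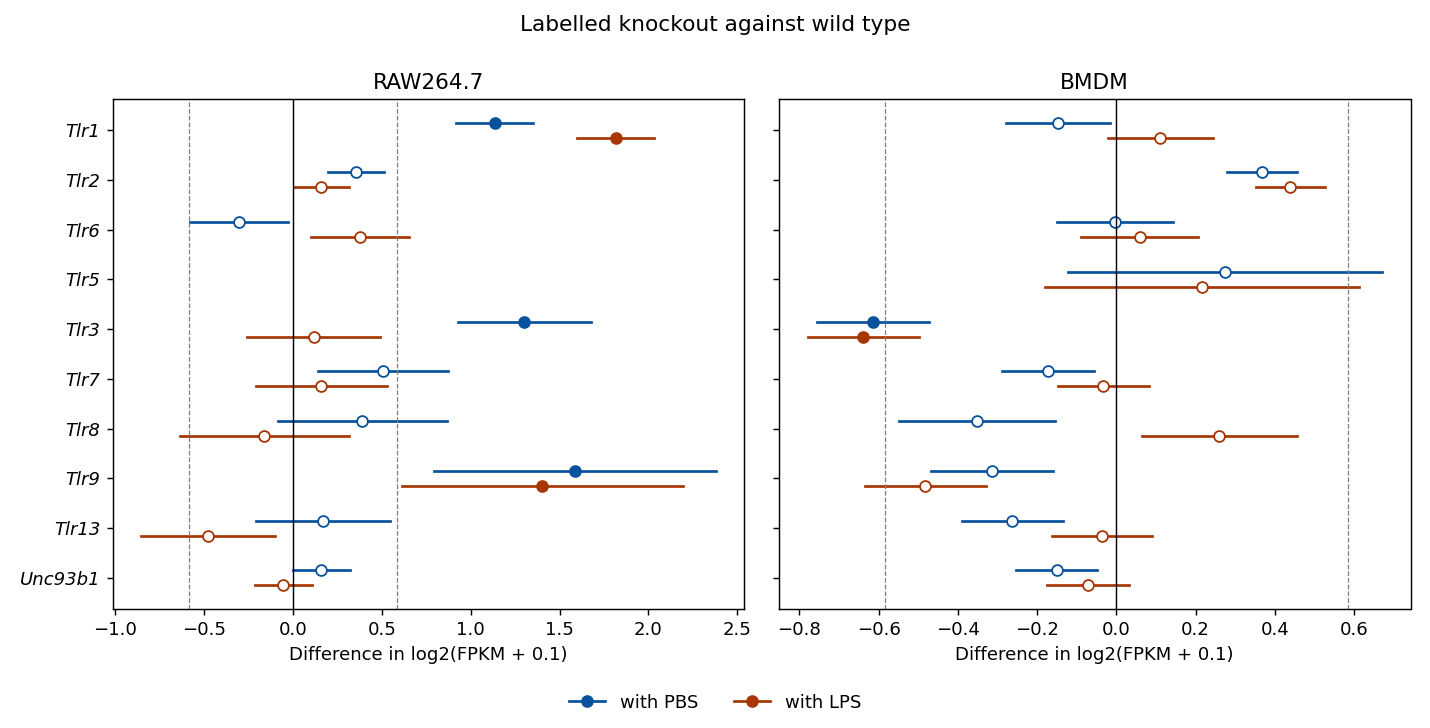
Difference of libraries labelled knockout against wild type in log2(FPKM + 0.1) for each gene, with PBS (blue) and with LPS (brown), in RAW264.7 (left) and BMDMs (right); circles are limma estimates with 95% intervals, filled where called. Tlr1 and Tlr9 lie to the right in RAW264.7 with either treatment, and Tlr3 lies to the right in RAW264.7 with PBS and to the left in BMDMs.

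The third question was whether the genotype changed the response to LPS. In RAW264.7 the difference of the responses was called for Tlr1 (0.68, 95% interval 0.37 to 0.99, limma adjusted p = 0.0368) and Tlr3 (-1.18), 2 of 9 members beside 1.95% of all genes. In BMDMs it was called for Tlr8 alone (0.61), 1 of 10 beside 2.93%. Both RAW264.7 calls sat near the adjusted p of 0.05 and were lost with a pseudocount of 0.01, with TPM and without most single libraries. The Tlr1 call held only without labelled-knockout PBS replicate 1 or 2, and the Tlr3 call only without labelled-knockout LPS replicate 2, labelled-knockout PBS replicate 1, wild-type LPS replicate 2 or wild-type PBS replicate 3. For Tlr13 the difference was -0.65 in RAW264.7 and 0.23 in BMDMs, and neither was called (limma adjusted p = 0.331 and 0.149). Without labelled-knockout PBS replicate 1, 4 members were called in RAW264.7: Tlr1, Tlr3, Tlr13 (-0.84, limma adjusted p = 0.024) and Tlr9 (-0.70, limma adjusted p = 0.0478).

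The genes around the receptors were read from lists of the pathway. Of the other Toll-like receptors, Tlr4, the LPS receptor, fell with LPS in both genotypes of both cell types: by 0.92 and 1.48 on the log2 scale in RAW264.7 wild type and labelled knockout (limma adjusted p = 0.00885 and 0.000401), and by 1.75 and 1.61 in BMDMs. Tlr11 and Tlr12 were tested in BMDMs only and not called. Of 12 genes of trafficking and processing, none rose in wild type of either cell type, while 4 fell in RAW264.7 and 5 in BMDMs, where 5.80% of all genes rose and 12.5% fell in RAW264.7, and 7.94% and 32.5% in BMDMs. On the median-ratio scale 2 rose and 3 fell in RAW264.7, and 3 rose and 2 fell in BMDMs. Cnpy3, a folding chaperone of the receptors, fell with LPS from 33.5 to 14.4 FPKM in wild-type RAW264.7 and from 28.0 to 9.31 in BMDMs, log2 differences of -1.22 and -1.59. Its relative Cnpy4 gave -0.85 and -2.11, and Lgmn, a protease that cleaves endosomal receptors, -0.94 and -0.78. The Lgmn fall in BMDMs was absent on the median-ratio scale (0.03).

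Of 15 signalling genes, 5 rose and 1 fell with LPS in wild-type RAW264.7, and 4 rose and 8 fell in BMDMs, beside the same shares of all genes (5.80% and 12.5%, 7.94% and 32.5%). After median-ratio scaling 6 rose and 1 fell in RAW264.7, and 7 rose and 2 fell in BMDMs. Irf7, the factor that drives type I interferon genes downstream of Tlr7 and Tlr9, rose from 5.07 to 86.6 FPKM in wild-type RAW264.7 and from 23.5 to 192 in BMDMs. It was also the signalling gene with the largest genotype difference: with PBS it stood at 0.45 FPKM in the RAW264.7 libraries labelled knockout and at 2.05 in knockout BMDMs, log2 differences of -3.23 and -3.45 (limma adjusted p = 2.27e-08 and 6.85e-08). Irak2, a kinase of the Myd88 complex, rose by a log2 difference of 2.41 in wild-type RAW264.7, Ticam1, the adaptor of Tlr3, by 1.25, and Myd88 by 1.92 in wild-type BMDMs. Tab1 fell by 1.89 there. In the RAW264.7 libraries labelled knockout, the adaptor Tirap was higher by 1.29 with PBS and 1.42 with LPS. In BMDMs with LPS, Ticam2 was higher in knockout by 0.63.

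Of 6 inhibitors, 2 rose and 1 fell with LPS in wild-type RAW264.7, and 1 rose and 3 fell in BMDMs, beside 5.80% and 12.5%, and 7.94% and 32.5%, of all genes. After median-ratio scaling 2 rose and 1 fell in each cell type. Tnfaip3, which removes ubiquitin from the signalling complex, rose from 1.47 to 36.5 FPKM in wild-type RAW264.7 and from 8.02 to 199.9 in BMDMs. Irak3, an inhibitory kinase, rose in wild-type RAW264.7 by 1.37, and Sigirr fell by 1.77. In wild-type BMDMs Rnf216 fell by 0.96 and Tollip by 0.75, and Tollip stood at 0.05 on the median-ratio scale. With LPS, Irak3 was lower in the RAW264.7 libraries labelled knockout by -1.20 and higher in knockout BMDMs by 1.13. Of 5 co-receptors, Cd14, which hands ligands to Tlr4 and Tlr2, rose with LPS by 1.35 in wild-type RAW264.7 and 1.76 in BMDMs, and it was lower in the RAW264.7 labelled-knockout libraries with PBS, 107 against 445 FPKM. Cd36, a partner of Tlr2 and Tlr6, went the other way in those libraries, 92.1 against 20.3 FPKM. Over the list, 1 co-receptor rose and none fell with LPS in wild-type RAW264.7, and 2 rose and 1 fell in BMDMs, beside those shares of all genes, while on the median-ratio scale 3 rose in RAW264.7 and 4 in BMDMs and none fell.

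The genes whose pattern was most like each member were described by Pearson correlation of log2(FPKM + 0.1) over 12 libraries in each cell type, taking the lower of both values, among 10369 genes. These libraries share LPS and genotype groups, so the values say that genes moved alike across the same groups. Tlr2 was closest to Pde4b (0.995), Nfkb1 (0.994) and Irak2 (0.992), and Tlr1 to Birc3 (0.988), Maml2 (0.986) and Zc3h12c (0.985). Tlr6 was closest to Tiparp (0.958), Dusp1 (0.958) and Niban1 (0.948). Tlr3 was closest to Sp110 (0.987), Filip1l (0.978) and Sp140 (0.977), and Tlr13 to Ap2a2 (0.993), Wipf1 (0.993) and Slc43a2 (0.992). Tlr7 was closest to Nr3c1 (0.970), Acsl1 (0.959) and Tcf4 (0.948), and Tlr9 to Ints6 (0.961), Atp7a (0.955) and Mtcp1 (0.950). Unc93b1 had no close companion, with Mmachc (0.800), Luc7l3 (0.783) and Armc7 (0.782). By Spearman correlation 2 of these 24 genes were again among the 3 closest, so the rank of single genes depends on the measure.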

How the data were processed

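RNA-seq was analysed from 24 libraries in 2 cell types. For each cell type the authors deposited counts and FPKM of 56691 genes in 1 file, and no source used here names the aligner, the counting program or its strand setting. Where a gene had over 50 counts, the deposited FPKM equalled that recomputed from count, length and depth to within 1% in 99.9% (RAW264.7) and 99.5% (BMDMs) of values. Per the labels the build is mm10, but the tables' gene positions are not those of GRCm38 (0 of 10 members, 1472 of 52073 shared genes), so the build of those positions is not settled and only promoter positions of GRCm38.p6 from RefSeq are printed. Groups were taken from titles, although 12 of 24 genotype tags go against their title. Whether tag or title is right was not settled. The level of Olfml3 with PBS goes with the titles in BMDMs and against them in RAW264.7.

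In each cell type, the 4 group means were estimated with limma 3.58.1 (R 4.3.3) on log2(FPKM + 0.1), two-sided, with Benjamini-Hochberg adjustment over all genes with FPKM above 0 in at least 1 library (26740 in RAW264.7, 26973 in BMDMs), as the study's methods name limma, an adjusted p of 0.05 and a fold change of 1.5. The fits had 8 residual degrees of freedom. edgeR 4.0.16 and DESeq2 1.42.0 ran on the deposited counts as alternatives, beside other pseudocounts, filters and scalings and leaving out each library. The fits were also run on simulated counts, drawn with the same excess spread in every gene and with genes changed only in wild type with LPS. That run held no shift of most genes and no library standing apart, so it does not bear on calls that depend on either. The 10 members were named throughout, with at most 3 called genes per pathway list and comparison, those of largest difference with a mean of at least 1 FPKM, and the 3 genes most like each member. Members and lists were chosen with earlier results of these data known. Intervals of counts cover counting error only. Figures were drawn with matplotlib 3.10.9. The kappaB and ISRE motifs were searched first with 1 more base at the end and then in the shorter form given, after the matches were seen; the Tlr3 and Tlr6 matches were found with both forms and the Tlr8 ISRE match only with the shorter one.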

Additional observations from a re-analysis of the deposited data

Results flagged for a closer look

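Within a cell type, the response to LPS differed between genotypes by the interaction term of limma for Tlr1 (0.68) and Tlr3 (-1.18) in RAW264.7 and for Tlr8 (0.61) in BMDMs, all as log2 differences.

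Other results are listed because the libraries of both groups did not overlap in either cell type while the direction was opposite, and that difference between cell types was not tested. The share of all genes that meet this rule was not counted. In single comparisons 20.5% to 52.2% of all genes did not overlap. The list takes in small differences that were not called. With PBS, the libraries labelled knockout against wild type gave log2 differences in RAW264.7 and BMDMs of 1.14 and -0.15 for Tlr1, 1.30 and -0.61 for Tlr3, 0.51 and -0.17 for Tlr7, 1.59 and -0.31 for Tlr9, and 0.16 and -0.15 for Unc93b1. With LPS, the same comparison gave 1.40 and -0.48 for Tlr9. The opposite direction of these genotype pairs depends on the RAW264.7 labels, which the level of Olfml3 goes against. Were those labels exchanged, each genotype pair would have the same direction in both cell types. LPS against PBS in wild type gave -0.25 and 0.56 for Tlr7, 0.83 and -0.84 for Tlr9, and 0.20 and -0.54 for Unc93b1. In the libraries labelled knockout it gave -0.60 and 0.70 for Tlr7 and 0.64 and -1.01 for Tlr9.

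Of these, Tlr3 with PBS is the pair called in both cell types for genotype, and Tlr7 in the libraries labelled knockout the pair called in both for LPS. Every other pair was called in a single cell type or in neither. With a pseudocount of 1 FPKM the Tlr3 differences with PBS were 0.55 in RAW264.7 and -0.50 in BMDMs, and neither was called. On the median-ratio scale the Tlr9 and Unc93b1 differences with LPS in BMDMs were -0.05 and 0.27 in wild type. The direction of Unc93b1 turned, and the Tlr9 difference was too small for a direction to be read (limma adjusted p = 0.652). In RAW264.7 the Tlr7 fall in the libraries labelled knockout was -0.33 and not called on that scale, and the Tlr9 difference of 0.64 there was 0.13 without labelled-knockout PBS replicate 1.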

How the results depend on the processing

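Across the 95 member results, the counts of called members with LPS against PBS stayed within 1.5 times under every alternative run. The genes behind a count still changed. In wild-type BMDMs 4 rose and 4 fell, and 5 rose and 2 fell with median-ratio scaling, both edgeR runs and DESeq2. There Tlr8 and Tlr9 were lost and Tlr7 was gained. Wild-type RAW264.7 went from 4 called to 6 with DESeq2 and with edgeR after filterByExpr. The number of members whose response differed by genotype in RAW264.7 was 2, and it was 0 with a pseudocount of 0.01, 0 with TPM, 1 with a pseudocount of 1, 1 with an intensity trend, and 0 with the replicate block. In BMDMs it was 1, and 0 with median-ratio scaling, with edgeR (either filter) and with DESeq2. Between BMDM genotypes with PBS, 1 member was called, 0 with a pseudocount of 1 and 4 by adjusted p alone. With LPS 1 was called, 2 with median-ratio scaling, both edgeR runs and DESeq2, 0 with quantile normalization and 3 by adjusted p alone. The Tlr8 fall with LPS in wild-type BMDMs turned to 0.01 with median-ratio scaling and 0.02 with DESeq2; Lgmn to 0.03 with both, and Tollip to 0.05 with both and 0.02 with edgeR after filterByExpr. The cause of these changes was not tested. Of the 24 genes most like a member, 2 were kept by Spearman correlation.

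Leaving out single libraries, called members ranged in RAW264.7 from 4 to 5 (LPS in wild type), 5 to 7 (LPS in labelled knockout), 2 to 5 (genotype with PBS), 1 to 2 (genotype with LPS) and 0 to 4 (interaction), and in BMDMs from 8 to 9, 8 to 8, 0 to 1, 1 to 1 and 0 to 1 in that order. Genotype with LPS in RAW264.7 fell to 1 without any labelled-knockout library or wild-type replicate 1, genotype with PBS rose to 5 without labelled-knockout replicate 1, and in BMDMs it fell to 0 without knockout replicate 1 or wild-type replicate 2. The replicate numbers were not shown to pair the libraries: same-numbered deviations correlated at -0.047 to 0.089, and the replicate block moved no other count by over 1.5 times. With no count of Tlr5 in RAW264.7, a change in it was not detectable there at this depth. Tlr8, with 0 to 4 counts a library there, was called without labelled-knockout PBS replicate 1 for genotype with PBS (0.63) and LPS in labelled knockout (-0.63). The cause of the lost calls was not tested.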
